A study of Homo sapiens with 8 samples.

Results

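Ubiquitin and its relatives are small proteins that fold alike and, for most of them, are joined to other proteins as tags. The members described here are 7 genes chosen by name from the 63677 gene IDs of the count tables: UBB and RPS27A, which code for ubiquitin itself, NEDD8, SUMO2 and SUMO3, which code for related tags, and UBL4A and UBL4B, which code for proteins that carry a ubiquitin-like domain. The rule uses their names and no measured value, though it was written with earlier results of these data known. RNA was sequenced from 8 libraries in 4 groups of 2, all from PC9, an established human lung adenocarcinoma cell line, or PC9-BrM3, its brain metastatic subline. PC9 parental and PC9-BrM3 cells were grown without a transgene for 48 h before harvest. The shNTC and shHSF1 groups were PC9-BrM3 cells transduced with a lentiviral Tet-pLKO plasmid, which expresses a short hairpin RNA when doxycycline is present. The shNTC hairpin was the non-target control and shHSF1 (clone 7480) was a single hairpin against HSF1, the transcription factor that turns on heat shock genes. Both transduced groups had 5 days of puromycin and 48 h of 500 ng/mL doxycycline, so their comparison shares virus, selection and drug. The file headers place the untransduced libraries in lane 7 and the transduced ones in lane 1, so lane and transduction cannot be told apart, and tests were made only within a lane. Nothing in the labels says that the libraries of a group came from separate cultures, so the p-values measure only the spread between these libraries.

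Ubiquitin marks proteins for the proteasome, for sorting or for signalling. It is made only as a fusion: UBB codes for ubiquitin repeats joined head to tail and is a classic stress-inducible gene, whereas RPS27A joins 1 ubiquitin to a protein of the small ribosomal subunit. NEDD8 is attached chiefly to cullins and switches on the ubiquitin ligases built on them. SUMO2 and SUMO3 are close paralogs whose attachment to proteins rises after heat and other protein-damaging stress. UBL4A works with BAG6 to hand newly made tail-anchored membrane proteins to the GET insertion pathway, and UBL4B is a copy of UBL4A without introns that is best known from male germ cells.

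Library totals ran from 33550140 to 56715336 counts. A count of 0 would allow at most 0.0529 to 0.0894 counts-per-million (CPM) units, counting error only. These limits use the raw totals, without the scaling between libraries that the CPM values below carry. HSF1 itself was at 178.4 and 183.8 CPM in the shNTC libraries and at 15.6 and 13.5 CPM in the shHSF1 libraries, a log2 fold change of -3.61 ± 0.08 (SE; edgeR quasi-likelihood test, adjusted p = 2.66e-08), and at 47.0 to 54.6 CPM in the 4 untransduced libraries. Epithelial markers EPCAM, CDH1, KRT8, KRT18 and KRT19 were between 260 and 2186 CPM in every library. The lung lineage markers NKX2-1 and NAPSA reached only 0.196 and 0.762 CPM, and SFTPB ran from 0.026 to 15.6 CPM. Of the markers of other cells, PECAM1, DCN and LUM had 0 counts in all 8 libraries, PTPRC, CD3E and PDGFRB reached 0.077, 0.090 and 0.090 CPM, CD68 0.789 CPM, and CDH5 was at 18.7 to 55.3 CPM. PC9-BrM3 replicate 2 stood apart: mitochondrial genes held 17.3% of its counts against 1.4% to 6.2% elsewhere, and ribosomal protein genes 1.77% against 3.16% to 4.32%. Differences that rest on it are given with and without it.

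In the files' annotation (GRCh37) UBB lies at chr17:16284112-16286059 (plus strand), RPS27A at chr2:55459039-55462989 (plus), NEDD8 at chr14:24686058-24701660 (minus), SUMO2 at chr17:73163408-73179078 (minus), SUMO3 at chr21:46225532-46238694 (minus), UBL4A at chrX:153712056-153715009 (minus) and UBL4B at chr1:110655062-110656569 (plus). Each value is the sum over all exons of the gene, so transcripts of a gene are not told apart. All 7 members were detected in every library, at levels that spanned more than an order of magnitude. Levels between genes are compared per kilobase of merged exon, scaled to the same sum in each library (TPM, computed from the counts and the gene lengths in the files). In the PC9 parental group UBB stood at 1142 ± 67.3 TPM (SD, n = 2), rank 65 of 27843 genes above 0, and RPS27A at 731 ± 57.0 TPM, rank 118. SUMO2 followed at 232 ± 7.1 TPM, SUMO3 at 86.3 ± 4.6 TPM and UBL4A at 61.2 ± 7.7 TPM. NEDD8 (28.9 ± 4.0 TPM) and UBL4B (27.6 ± 0.69 TPM) came last, and their libraries overlapped. The order UBB, RPS27A, SUMO2, SUMO3, UBL4A held for the group means of all 4 groups. In PC9-BrM3 the library values of UBB and RPS27A overlapped, as did those of RPS27A and SUMO2. UBL4B, at 30.9 ± 5.5 TPM, lay above NEDD8 (23.7 ± 1.3 TPM) in shNTC and far below it in shHSF1, at 3.68 ± 0.40 against 24.5 ± 0.64 TPM.

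**Figure D1:**
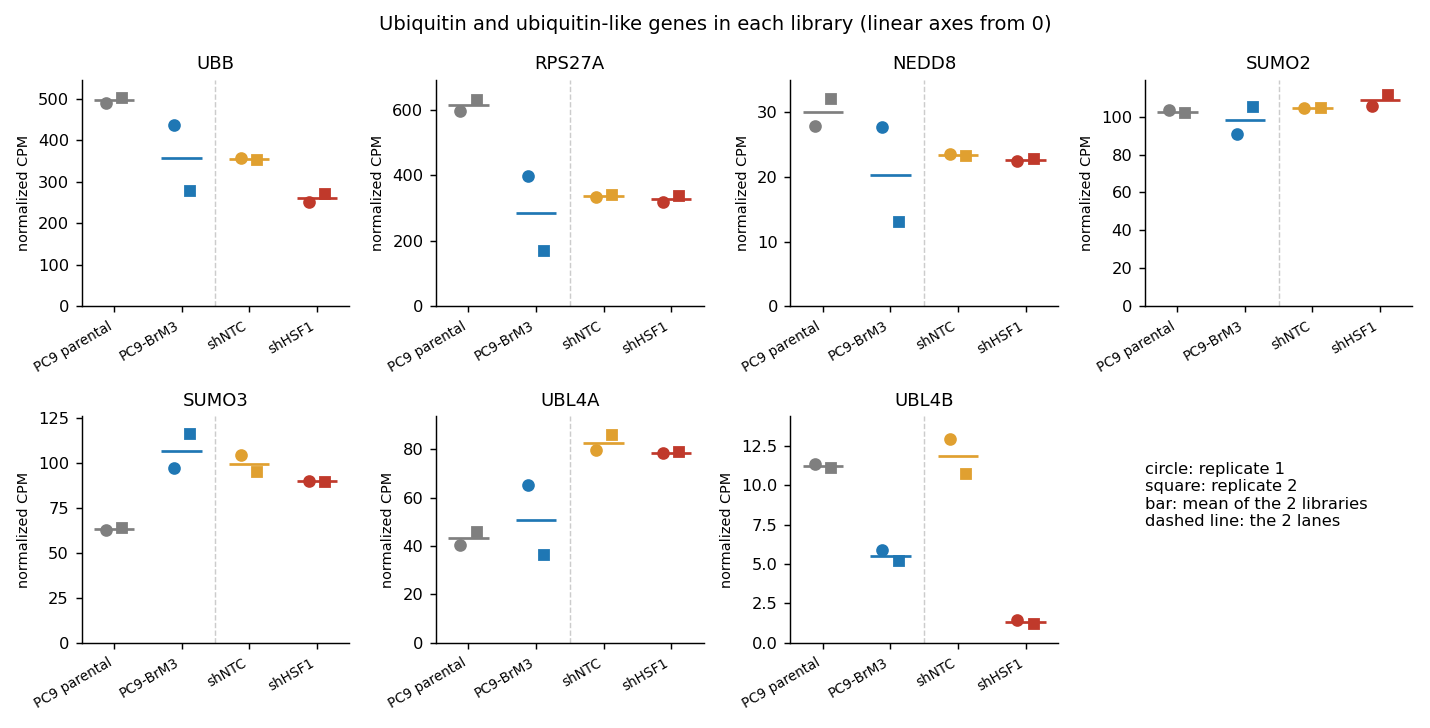
Normalized CPM (y axis, linear from 0) of the 7 genes in each library; circles are replicate 1, squares replicate 2, bars the mean of 2 libraries, and the dashed line separates the lanes. UBL4B sits at 1.44 and 1.21 CPM in shHSF1 against 12.9 and 10.7 CPM in shNTC, while the other genes keep to a narrower range, and the PC9-BrM3 squares lie away from the circles for UBB, RPS27A, NEDD8 and UBL4A.

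The knockdown comparison asks how transcripts change when HSF1 is lowered. UBL4B and UBB were lower in shHSF1 than in shNTC, and the other 5 members did not pass the test (edgeR quasi-likelihood F test with Benjamini-Hochberg adjustment over 16840 genes, threshold 0.05). In this comparison 45.7% of all tested genes were called, made up of 23.5% lower and 22.2% higher in shHSF1, so 2 of 7 is below the background and the count itself says nothing particular about these genes. With upper-quartile scaling 4592 genes were higher and 3387 lower, against 3739 and 3962, so the balance of directions over all genes also turns with the scaling. The size of the UBL4B change was less common: 18 of the 16840 tested genes, or 0.107%, fell at least as far.

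Among the ubiquitin genes, UBB was at 358.7 and 352.2 CPM in the shNTC libraries and at 252.3 and 270.4 CPM in the shHSF1 libraries. The groups did not overlap, which was true of 73.2% of all tested genes. UBB fell by 0.42 ± 0.06 on the log2 scale (SE; 1.34-fold; edgeR adjusted p = 0.000288). The call held without each library in turn but not when all 8 libraries shared 1 estimate of the spread (adjusted p = 0.130). RPS27A, the other ubiquitin gene, was at 333.7 and 341.4 CPM in shNTC and at 320.0 and 338.0 CPM in shHSF1, with overlapping groups. Its log2 fold change was -0.01 with a 95% interval from -0.14 to 0.11. In RNA from whole cultures, a lower level in every cell and fewer cells with the transcript cannot be told apart. Measured within each library, and so free of library size, UBB exceeded RPS27A 2.03 ± 0.06 times per merged exon length in shNTC (SD, n = 2) and 1.53 ± 0.02 times in shHSF1. In counts, without lengths, UBB lay above RPS27A in both shNTC libraries and below it in both shHSF1 libraries. With 2 libraries against 2 an exact permutation test cannot give a two-sided p below 0.333, so these ratios are described without a test.

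Part of the UBB and RPS27A signal could not be assigned by the counting. The 3 ubiquitin repeats of UBB matched each other at 94.7% to 96.5% of their 228 coding bases, and matched the ubiquitin part of RPS27A at 79.4% to 83.3%, so none of these stretches is identical throughout. Of the 50-base stretches of the UBB transcripts, 13.1% also occur in another gene, mostly its processed copy UBBP4. For RPS27A the share was 24.3%, and reads that map to several places were not counted under the settings in the file headers. The annotated pseudogenes of RPS27A held 29.2% to 34.0% of the counts of that family, most of them in RPS27AP16, against 1.15% to 4.76% for the copies of UBB. UBBP4 moved in the same direction as UBB in the knockdown, from 7.27 and 5.17 CPM to 2.85 and 2.41 CPM (log2 fold change -1.22 ± 0.20, edgeR adjusted p = 0.000821). RPS27AP16 was at 116.6 and 114.0 CPM in shNTC and at 110.9 and 122.1 CPM in shHSF1, overlapping as RPS27A did.

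Among the other tags, NEDD8 was at 23.5 and 23.3 CPM in shNTC and at 22.5 and 22.8 CPM in shHSF1. The log2 fold change was -0.03 (95% interval -0.22 to 0.16). SUMO2 was at 104.5 and 104.6 CPM in shNTC and at 105.7 and 111.7 CPM in shHSF1, a log2 fold change of 0.08 (-0.06 to 0.22). SUMO3 was at 104.4 and 94.99 CPM in shNTC and at 90.2 and 89.5 CPM in shHSF1, a log2 fold change of -0.13 (-0.28 to 0.03; edgeR adjusted p = 0.158). The libraries of NEDD8, SUMO2 and SUMO3 did not overlap between the groups, which was true of 73.2% of all tested genes. Their intervals all include 0 and reach no further than 0.28 on the log2 scale. JPT1, which overlaps the 3′ end of SUMO2 on the same strand of chromosome 17, rose 2.10-fold (log2 1.07 ± 0.07, edgeR adjusted p = 1.94e-06), and by default a read in exons of both genes is counted for neither. NEDD8-MDP1, an annotated read-through that overlaps NEDD8 on the same strand, had 0 counts in all 8 libraries, and 20.7% of the 50-base stretches of NEDD8 occur in its transcripts, so the NEDD8 level leaves out reads that fall in both.

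The paralogs UBL4A and UBL4B differed most. UBL4A was at 79.6 and 85.7 CPM in shNTC and at 78.4 and 78.6 CPM in shHSF1 (log2 fold change -0.05, 95% interval -0.20 to 0.10). UBL4B gave 627 and 394 counts in the shNTC libraries and 56 and 43 in the shHSF1 libraries, or 12.9 and 10.7 against 1.44 and 1.21 CPM. Both shHSF1 values lay below every other library of the study, where UBL4B ran from 5.20 to 12.9 CPM. Levels between the lanes were not tested. Untransduced PC9-BrM3 cells, at 5.86 and 5.20 CPM, lay below shNTC, and lane and transduction cannot be told apart there. The fall was 8.79-fold (log2 fold change -3.14 ± 0.18, edgeR adjusted p = 9.26e-07), and it ran from -3.27 to -2.99 when each library was left out in turn. UBL4B made up 20.01% ± 2.96 of the summed per-length level of the pair in shNTC (SD, n = 2) and 2.85% ± 0.35 in shHSF1. The coding sequences of the pair match at 67.1% of aligned bases, and no 50-base stretch of either occurs in another gene, so their reads can be told apart.

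**Figure D2:**
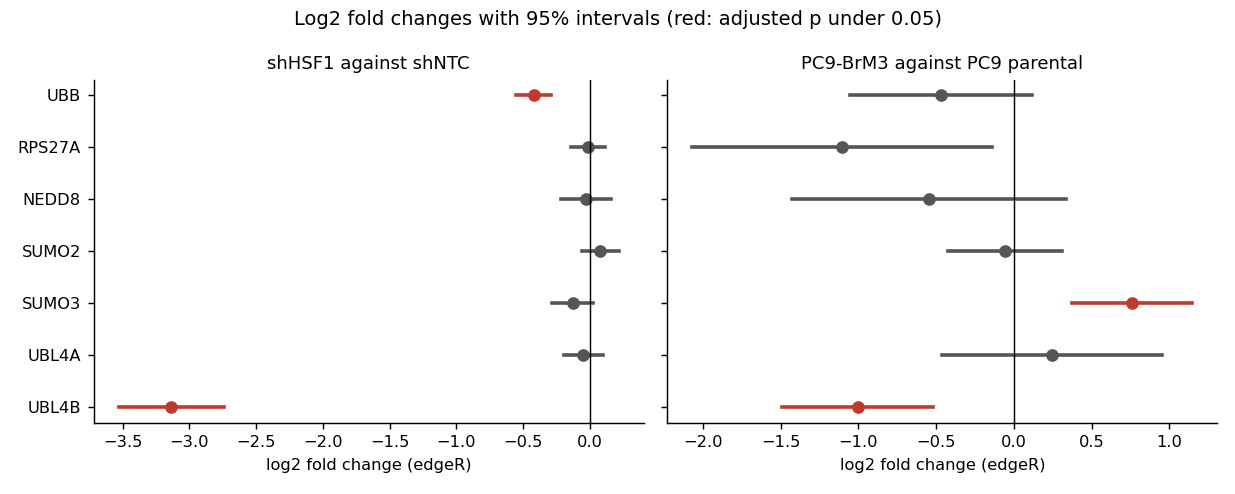
Log2 fold changes from edgeR (x axis; points) with 95% intervals (lines) for the 7 genes, shHSF1 against shNTC on the left and PC9-BrM3 against PC9 parental on the right; red marks an adjusted p under 0.05. On the left only UBB and UBL4B are red, both below 0; on the right the intervals are wider and UBL4B (-1.01) and SUMO3 (0.76) are red.

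The stretches before the start sites differ in CG content between UBL4A and UBL4B but little between SUMO2 and SUMO3, and are shown for that contrast. Each line holds the 250 bases upstream of the annotated start, 5′ to 3′ on the gene's strand, from RefSeq (GRCh38.p14), with CG dinucleotides in capitals. All 7 members had a start site there. The windows are chrX:154486616-154486865 (minus strand) for UBL4A, chr1:110112193-110112442 (plus) for UBL4B, chr17:75182960-75183209 (minus) for SUMO2 and chr21:44818063-44818312 (minus) for SUMO3.
UBL4A: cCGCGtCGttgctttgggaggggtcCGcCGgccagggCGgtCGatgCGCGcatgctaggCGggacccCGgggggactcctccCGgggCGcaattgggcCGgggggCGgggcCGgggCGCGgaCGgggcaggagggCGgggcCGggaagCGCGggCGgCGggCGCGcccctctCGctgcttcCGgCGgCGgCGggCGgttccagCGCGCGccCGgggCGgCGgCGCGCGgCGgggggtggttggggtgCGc
UBL4B: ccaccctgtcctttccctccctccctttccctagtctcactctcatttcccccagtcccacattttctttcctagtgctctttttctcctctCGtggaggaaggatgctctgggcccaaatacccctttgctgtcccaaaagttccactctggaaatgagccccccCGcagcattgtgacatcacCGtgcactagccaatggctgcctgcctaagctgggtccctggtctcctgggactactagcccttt
SUMO2: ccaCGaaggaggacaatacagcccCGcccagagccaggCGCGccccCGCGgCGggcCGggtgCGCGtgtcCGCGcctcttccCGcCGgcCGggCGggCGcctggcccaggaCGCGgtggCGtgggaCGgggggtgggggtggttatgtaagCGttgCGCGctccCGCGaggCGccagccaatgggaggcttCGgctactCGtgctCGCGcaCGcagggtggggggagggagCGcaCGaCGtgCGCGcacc
SUMO3: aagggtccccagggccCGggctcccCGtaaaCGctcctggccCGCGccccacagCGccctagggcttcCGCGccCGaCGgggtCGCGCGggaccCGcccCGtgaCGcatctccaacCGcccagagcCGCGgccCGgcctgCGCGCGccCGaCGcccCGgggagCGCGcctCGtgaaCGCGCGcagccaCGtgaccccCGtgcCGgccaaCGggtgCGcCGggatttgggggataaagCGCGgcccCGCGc

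UBL4A has 44 CG dinucleotides in its window and UBL4B 3, while SUMO2 has 37 and SUMO3 42. Over all 35116 RefSeq windows of that length the median was 11, with quartiles at 3 and 23. So the UBL4A, SUMO2 and SUMO3 starts lie above the upper quartile, and that of UBL4B lies at the lower one. The sites bound by HSF1 hold inverted GAA units. Pairs of these units were searched here as GAANNTTC and TTCNNGAA, each of which reads the same on both strands. Only pairs were searched, not whole sites, and binding was not measured. Neither a match nor its absence therefore tells whether HSF1 binds. Either motif occurred in 11.58% of all windows, and TTCNNGAA alone in 6.62%. The NEDD8 window held 1 copy of TTCNNGAA, and the letters searched were absent from the UBL4B, UBL4A, SUMO2, SUMO3 and RPS27A windows. The windows of UBB also held 0 matches. They lie downstream of the start of its longest GENCODE transcript, so they do not cover the bases before that start. The later windows of RPS27A likewise lie downstream of its first annotated start.

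Genes beside UBL4B were also lower in shHSF1. UBL4B is a single stretch of 1508 bases in the files' annotation, equal to its merged exon length. LINC01397, a long non-coding RNA that ends 2.72 kb upstream on the same strand, was at 4.83 and 4.63 CPM in shNTC and at 0.951 and 0.645 CPM in shHSF1. It fell by 2.53 ± 0.22 on the log2 scale (edgeR adjusted p = 1.52e-05). SLC6A17, a synaptic vesicle amino acid transporter gene that starts 36.5 kb downstream on the same strand, was at 88.2 and 90.0 CPM in shNTC and at 23.3 and 22.9 CPM in shHSF1. Its log2 fold change was -1.93 ± 0.07 (edgeR adjusted p = 6.94e-08). For both genes the shHSF1 libraries lay below all other libraries of the study, though levels between the lanes were not tested. AHCYL1, which modulates calcium release and ends 88.7 kb upstream, had a smaller log2 fold change of -0.25, and KCNC4, a potassium channel gene 97.4 kb downstream, of 0.44, both past the threshold. Without shNTC replicate 1 the call of KCNC4 was lost (edgeR adjusted p = 0.0527). Reads were counted by strand, and UBL4B, LINC01397 and SLC6A17 do not overlap, and transcription that runs through from one into the next was not tested.

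**Figure D3:**
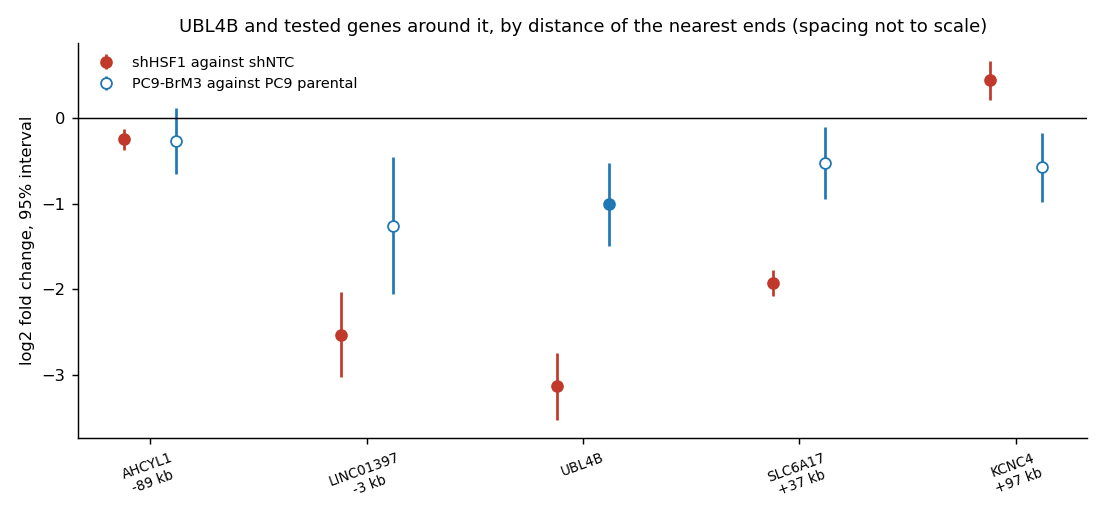
Log2 fold changes (y axis, with 95% intervals) of UBL4B and 4 tested genes within 100 kb of it, ordered by the distance between nearest ends (x axis, spacing not to scale), red for shHSF1 against shNTC and blue for PC9-BrM3 against PC9 parental; filled points have an adjusted p under 0.05. LINC01397, UBL4B and SLC6A17 form a run of low red points between -3.14 and -1.93, with AHCYL1 (-0.25) and KCNC4 (0.44) nearer to 0 on either side.

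The comparison of PC9-BrM3 with PC9 parental asks what distinguishes the metastatic subline. SUMO3 was higher and UBL4B lower in PC9-BrM3, and the other 5 members did not pass. Over 17372 tested genes 7.14% were called, 3.87% higher and 3.27% lower. Both calls were lost when either parental library was left out (adjusted p between 0.367 and 0.503 by edgeR), and held without either PC9-BrM3 library. Fits that leave out 1 library call very different shares of all genes: 2.23% and 2.64% without parental replicate 1 or 2, and 51.1% and 30.8% without PC9-BrM3 replicate 1 or 2. The PC9-BrM3 pair was far less alike than the others: replicate counts differed by a chi-square of 301 per degree of freedom, against 10.9 to 25.1 in the other groups.

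SUMO3 was at 62.7 and 63.9 CPM in PC9 parental and at 97.4 and 116.2 CPM in PC9-BrM3, with every PC9-BrM3 library above every parental one. The groups did not overlap for 59.0% of all tested genes. SUMO3 was 1.70-fold higher (log2 fold change 0.76 ± 0.16, edgeR adjusted p = 0.0456), and without PC9-BrM3 replicate 2 the value was 0.62 (adjusted p = 5.77e-05). The call was also lost with an offset for gene length (adjusted p = 0.0526). SUMO2 was at 103.3 and 101.8 CPM in PC9 parental and at 91.0 and 105.0 CPM in PC9-BrM3, overlapping, with a log2 fold change of -0.06 (-0.43 to 0.31). The 2 paralogs, which match at 81.9% of their aligned coding bases, therefore shifted in proportion: SUMO3 was 27.1% ± 0.46 of their summed per-length level in PC9 parental (SD, n = 2) and 39.6% ± 0.56 in PC9-BrM3. This share changed little between the PC9-BrM3 libraries, at 39.2% and 40.0%, although replicate 2 stood apart in other respects. It was 36.5% ± 1.57 in shNTC and 33.2% ± 0.98 in shHSF1. Processed copies of SUMO2 held 17.9% of the family's counts in PC9-BrM3 replicate 2 and 4.64% to 6.65% in the other libraries, so some SUMO2 reads there may be assigned to the copy SUMO2P1, at 22.7 CPM in that library and 4.71 to 6.07 CPM elsewhere.

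UBL4B was at 11.3 and 11.1 CPM in PC9 parental and at 5.86 and 5.20 CPM in PC9-BrM3, from 639, 578, 312 and 173 counts. Both PC9-BrM3 libraries lay below both parental ones, and the groups did not overlap for 59.0% of all tested genes. The fall was 2.01-fold (log2 fold change -1.01 ± 0.20, edgeR adjusted p = 0.0405) and measured -0.94 without PC9-BrM3 replicate 2 (adjusted p = 0.000245). LINC01397 (log2 -1.26 ± 0.32, edgeR adjusted p = 0.0805) and SLC6A17 (-0.52 ± 0.17, adjusted p = 0.136) did not pass in this comparison. Both passed without PC9-BrM3 replicate 2, at -0.94 (adjusted p = 0.00197) and -0.38 (adjusted p = 0.00651). UBL4A was at 40.5 and 45.7 CPM in PC9 parental and at 65.0 and 36.4 CPM in PC9-BrM3, so the 2 subline libraries lay on either side of the parental ones. Its log2 fold change was 0.24 (-0.46 to 0.95) with all libraries and 0.59 without PC9-BrM3 replicate 2 (edgeR adjusted p = 0.00027).

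RPS27A, UBB and NEDD8, like UBL4A and UBL4B, had their lowest value of the 4 untransduced libraries in PC9-BrM3 replicate 2. SUMO2 and SUMO3 had their highest there. RPS27A was at 597.6 and 630.0 CPM in PC9 parental and at 397.9 and 169.2 CPM in PC9-BrM3. Its log2 fold change of -1.10 ± 0.39 did not pass (95% interval -2.07 to -0.14, edgeR adjusted p = 0.156). It passed without either PC9-BrM3 library, at -0.63 without replicate 2 (adjusted p = 4.90e-05) and -1.85 without replicate 1 (adjusted p = 7.54e-12), with DESeq2 (adjusted p = 0.0266) and with all 8 libraries in 1 fit (0.0393). UBB was at 490.2 and 503.0 CPM in PC9 parental and at 436.2 and 277.8 CPM in PC9-BrM3, a log2 fold change of -0.47 (-1.05 to 0.12), and -0.19 without replicate 2 (adjusted p = 0.13). NEDD8 was at 27.9 and 32.1 CPM in PC9 parental and at 27.7 and 13.0 CPM in PC9-BrM3, a log2 fold change of -0.55 (-1.43 to 0.33), and -0.12 without replicate 2. Without PC9-BrM3 replicate 1, so with replicate 2 alone, UBB (-0.83, adjusted p = 3.45e-07) and NEDD8 (-1.20, adjusted p = 3.38e-07) passed by edgeR. In contrast to UBB, its copy UBBP4 was higher in PC9-BrM3, at 15.6 and 13.6 CPM against 4.89 and 6.30 CPM (log2 fold change 1.39 ± 0.22, edgeR adjusted p = 0.0234), a call lost without PC9 parental replicate 1 (adjusted p = 0.251) or replicate 2 (0.0795).

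**Figure D4:**
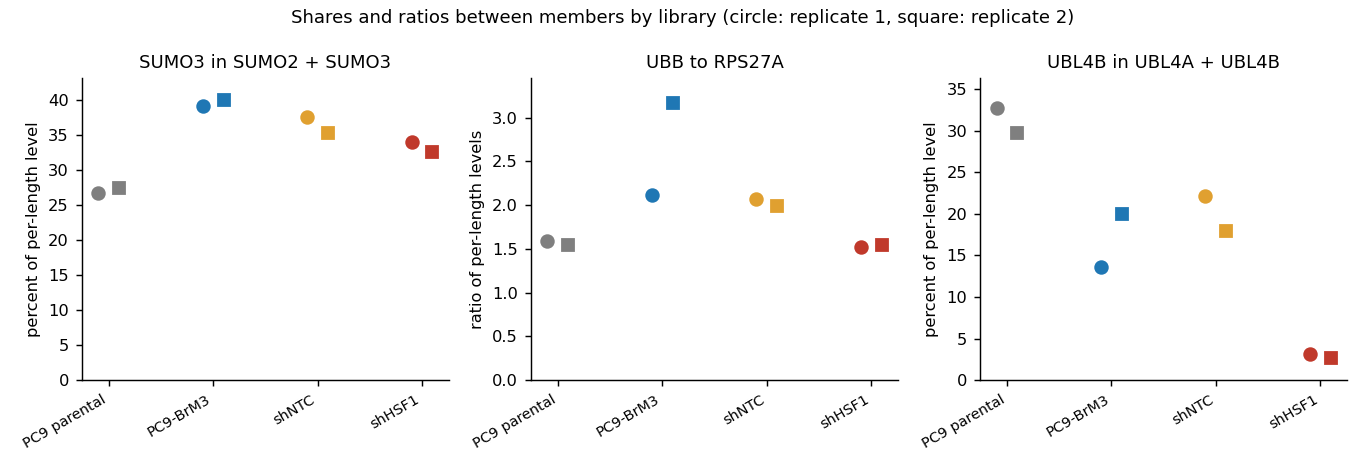
Ratios within each library, free of library size, for the 4 groups: SUMO3 as a percent of SUMO2 plus SUMO3, UBB divided by RPS27A, and UBL4B as a percent of UBL4A plus UBL4B, all from per-length levels (y axes from 0; circles replicate 1, squares replicate 2). The SUMO3 share is lowest in PC9 parental (26.8% and 27.4%), the UBL4B share is lowest in shHSF1 (3.10% and 2.60%), and the UBB to RPS27A ratio is 3.17 in PC9-BrM3 replicate 2 against 1.52 to 2.12 in the other libraries.

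RPS27A can be set beside the other proteins of the small ribosomal subunit. In PC9-BrM3 all 29 tested genes of that list had log2 fold changes below 0, with a median of -0.69 against 0.01 for all tested genes, and 0 of 29 passed by edgeR, though 12 had an unadjusted p under 0.05. With DESeq2 5 of the 29 passed, all lower, while 12.7% of all genes were called. Without PC9-BrM3 replicate 2, whose ribosomal protein share was the lowest, 22 of the 29 passed, all lower, while 30.8% of all genes were called. In the knockdown 5 of 29 were higher and 1 lower, 20.7% in all against the background of 45.7%, with a median of 0.08, and upper-quartile scaling gave 12 higher and 1 lower. RPS15 rose by 0.26 ± 0.06 on the log2 scale, the highest value of the list, and RPS26 fell by 0.39 ± 0.10, the lowest. The RPS26 call was lost without shNTC replicate 1 (edgeR adjusted p = 0.063) or shHSF1 replicate 1 (0.0585). In the subline the list ran from -1.20 to -0.08, so RPS27A, which is not in the list, lay within its range in both comparisons.

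The lists of related genes come next, all read against the same background. Of 14 other ubiquitin-like modifiers tested in the knockdown, 4 were higher and 3 lower, near the background share, with a median of 0.07. GABARAPL1 and MAP1LC3B, which are joined to membrane lipids in autophagy, rose 4.18-fold (225.8 ± 28.8 against 54.9 ± 2.6 CPM; SD, n = 2) and 1.96-fold (77.6 ± 3.2 against 40.2 ± 4.2 CPM). ISG15, the interferon-induced modifier, rose 1.57-fold at a low level (8.56 ± 0.15 against 5.54 ± 0.10 CPM). ATG12, which is joined to ATG5 in autophagy, fell by 0.79 ± 0.08 on the log2 scale, and UFM1, a modifier linked to the endoplasmic reticulum, by 0.57 ± 0.09. GABARAPL1 was also the 1 modifier of 14 that passed in the subline comparison, 1.92-fold higher (edgeR adjusted p = 0.0223). That call was lost without PC9 parental replicate 1 (adjusted p = 0.302) or replicate 2 (0.271).

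The enzymes that activate and carry ubiquitin, E1 and E2, split in the knockdown: of 32 tested, 8 were higher and 11 lower, 59.4% in all against the background of 45.7% (median 0.06). With upper-quartile scaling the split was 13 higher and 8 lower, so the balance between directions rests on the scaling here too. UBE2D1, a broadly used E2, rose by 0.63 ± 0.06 on the log2 scale, CDC34, which serves the cullin ligases that NEDD8 switches on, by 0.58 ± 0.07, and UBE2H by 0.50 ± 0.07. Larger changes were falls: UBE2W, which tags protein N termini, fell from 20.02 ± 0.83 to 4.82 ± 0.78 CPM (4.08-fold), UBE2Z, the partner of the alternative E1 UBA6, from 161.5 ± 2.1 to 54.4 ± 2.3 CPM (2.92-fold) and UBE2K from 114.6 ± 6.9 to 62.8 ± 0.89 CPM (1.80-fold). In the subline 0 of 32 passed by edgeR, 2 had an unadjusted p under 0.05, and 1 passed with DESeq2.

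Deubiquitinases, which cut ubiquitin chains and free ubiquitin from its fusions, had 14 of 66 tested genes higher and 20 lower in the knockdown, 51.5% in all (median -0.09). YOD1, which works with the segregase VCP, rose 2.97-fold (85.5 ± 5.0 against 29.2 ± 2.5 CPM), JOSD1 1.90-fold and ZRANB1 1.75-fold. OTULIN, which cuts linear chains, fell from 44.7 ± 2.3 to 17.3 ± 0.13 CPM, USP46 by 1.47 ± 0.10 and USP33 by 0.74 ± 0.06 on the log2 scale. In the subline 1 of 66 passed, USP44, a deubiquitinase of the mitotic checkpoint, at 7.77 ± 0.66 against 2.43 ± 0.02 CPM (edgeR adjusted p = 0.015). That call was lost without PC9 parental replicate 1 (adjusted p = 0.121) or replicate 2 (0.108). In the knockdown USP44 was at 4.54 and 4.57 CPM in shNTC and at 0.925 CPM in both shHSF1 libraries, a log2 fold change of -2.27 ± 0.19 (edgeR adjusted p = 1.25e-05), the lowest of the list.

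Genes that handle NEDD8 and SUMO were called in the knockdown at shares of 56.7% and 42.9%, against the background of 45.7%. Of 30 tested NEDD8 pathway genes 5 were higher and 12 lower in shHSF1 (median -0.01; 8 and 11 with upper-quartile scaling). COPS7A, a subunit of the signalosome that removes NEDD8 from cullins, fell 2.54-fold, from 77.7 ± 1.2 to 30.1 ± 2.0 CPM. Among the DCUN1D family, which helps attach NEDD8, DCUN1D1 and DCUN1D3 were lower by 0.52 ± 0.06 and 0.93 ± 0.12 on the log2 scale and DCUN1D2 and DCUN1D5 higher by 0.42 ± 0.09 and 0.41 ± 0.09. RNF7, the RING subunit of cullin 5 ligases, was higher by 0.39 ± 0.07. Of 28 SUMO pathway genes 2 were higher and 10 lower (median -0.12; 3 and 7 with upper-quartile scaling). SAE1, a subunit of the SUMO E1, fell from 220.5 ± 14.0 to 152.2 ± 6.9 CPM, the SUMO2 and SUMO3 ligase ZNF451 by 0.63 ± 0.08 and the SUMO protease USPL1 by 0.65 ± 0.09 on the log2 scale. The SUMO protease SENP5 rose 1.57-fold. In the subline 0 of 30 NEDD8 pathway genes passed by edgeR or DESeq2, and 1 had an unadjusted edgeR p under 0.05. Of 28 SUMO pathway genes only RNF4, the ubiquitin ligase that recognises SUMO2 and SUMO3 chains, passed, at 88.6 ± 0.91 against 52.7 ± 0.80 CPM (edgeR adjusted p = 0.0344). That call was lost without PC9 parental replicate 1 (adjusted p = 0.462) or replicate 2 (0.4998).

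UBL4A has 7 listed partners in the BAG6 complex and the GET pathway, all tested. In the knockdown 1 was higher and 1 lower, 28.6% in all, below the background of 45.7%. GET3, the targeting ATPase, was higher (117.7 ± 0.72 against 87.9 ± 3.1 CPM). GET1, part of its receptor at the endoplasmic reticulum, was lower (10.8 ± 0.80 against 18.3 ± 0.87 CPM). The median was 0.11, and with upper-quartile scaling 2 were higher and 1 lower. In the subline 0 of 7 passed by edgeR, where 7.14% of all tested genes did. There 1 had an unadjusted p under 0.05, and 1 passed with DESeq2.

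**Figure D5:**
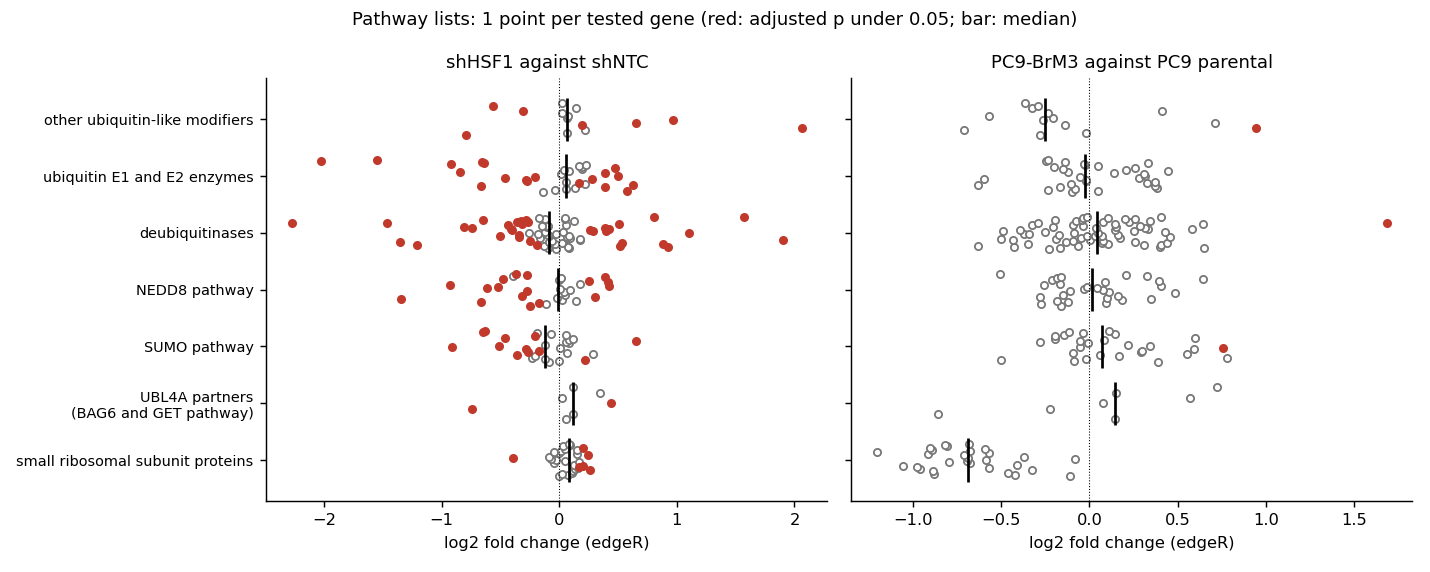
Log2 fold changes from edgeR (x axis) of every tested gene in 7 lists (rows), 1 point per gene, for both comparisons; red points have an adjusted p under 0.05 and black bars mark list medians. Left, called genes lie on both sides of 0 in every list; right, few points are red and the small ribosomal subunit proteins all lie below 0 with a median of -0.69.

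As a description of pattern, the genes whose log2 CPM followed UBB most closely over the 8 libraries, among 13809 genes with a mean of at least 1 CPM, were the ribosomal protein gene RPL22 (Pearson r = 0.994), GEMIN2, a factor in the assembly of splicing particles, and MKRN2, a ubiquitin ligase (both 0.991). For UBL4B they were FAM210A (0.990), HPS4, a factor in lysosome-related organelles, and CCT6A, a subunit of the cytosolic chaperonin (both 0.987). Such a correlation does not depend on the size of a change. In the knockdown FAM210A fell 1.58-fold, HPS4 1.84-fold and CCT6A 1.32-fold, against 8.79-fold for UBL4B. FAM210A, HPS4 and CCT6A were not called in the subline comparison, where UBL4B was. The points share 2 lanes and 4 groups of 2 libraries, so these values describe group patterns and not single libraries.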

How the data were processed

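The files hold read counts for 63677 Ensembl genes in 8 RNA-seq libraries. Per the file headers, the authors obtained these counts with featureCounts 1.6.1, summing reverse-stranded reads over the exons of a gene, with no option set for reads that map to several places or overlap several genes. The submitters' processing notes also name Trim Galore, HISAT2, DESeq2 and GRCh37. Symbols were matched for 52181 IDs (81.9%), and the rest held 0.656% to 0.823% of the counts of a library.

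The 4 libraries of a comparison were fitted with edgeR 4.0.16 in R 4.3.3 (filterByExpr with a minimum count of 10 and a minimum total of 15, TMM scaling, robust quasi-likelihood F test, 2 residual degrees of freedom before moderation), and p-values were Benjamini-Hochberg adjusted over all genes tested. CPM use TMM factors over all 8 libraries. The fit was checked on simulated counts. Alternatives were DESeq2 1.42.0, upper-quartile scaling, no filter, all 8 libraries in 1 fit, a replicate block, an offset for gene length, each library left out and, chosen after seeing the data, mitochondrial genes left out.

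Members and lists were chosen with earlier results of these data known. Named genes are the members, HSF1, up to 3 genes per list and direction by smallest p, genes that overlap a member or lie within 100 kb of UBL4B, pseudogene copies of members, and the 3 genes most like UBB and UBL4B; some genes near UBL4B are not reported here. Shared stretches and coding identity were computed from GENCODE v29 transcripts.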

Additional observations from a re-analysis of the deposited data

How the results depend on the processing

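In the knockdown, UBL4B kept its direction and call under every alternative run, and UBB lost its call only with all 8 libraries in 1 fit. The log2 fold changes of RPS27A, UBL4A and NEDD8, none of them called, changed sign with upper-quartile scaling (0.053, 0.018 and 0.039), and that of RPS27A ran from -0.049 to 0.024 over the left-out libraries. Of 42 other called genes of that comparison, taken by the naming rule and with USP44 added, none changed sign in 462 values and 25 values lost the call. In the subline comparison UBL4A ran from -0.24 to 0.59 and SUMO2 from -0.18 to 0.041 over the left-out libraries. The labels do not say whether replicate numbers pair the samples. Deviations of same-numbered libraries correlated at 0.0461 in the knockdown and -0.0389 in the subline. These correlations, from 2 libraries per group, cannot tell whether the samples were paired. With the number as a block, UBL4B (adjusted p = 0.0514) and SUMO3 (0.0558) missed the threshold in the subline, which left 0 members and 0 SUMO pathway genes called and 1 small ribosomal subunit gene; no other member changed its call. The length offset left 1 member called there. The causes were not tested.

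Counts called in the knockdown moved by over 1.5 times mainly with all 8 libraries in 1 fit: 3873 of all genes (7701 otherwise), 1 member, 4 other modifiers, 11 E1 and E2 genes, 18 deubiquitinases, 5 NEDD8 and 6 SUMO pathway genes, 1 UBL4A partner and 0 ribosomal genes. The ribosomal count was 13 with upper-quartile scaling and 2 to 4 over the left-out libraries.

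In the subline, all genes called numbered 1240, but 3159 without a filter, 2203 with DESeq2, 3813 with all 8 libraries and 402 to 9228 over the left-out libraries. Without a filter there were 2 E1 and E2 genes, 4 deubiquitinases, 1 NEDD8 and 4 SUMO pathway genes, 2 UBL4A partners and 9 ribosomal genes. With DESeq2 there were 1, 2 and 1 among the E1 and E2 genes, deubiquitinases and UBL4A partners, and 5 ribosomal genes. With all 8 libraries there were 2 other modifiers, 2 E1 and E2 genes, 10 deubiquitinases, 1 NEDD8 and 3 SUMO pathway genes, 1 UBL4A partner and 10 ribosomal genes. Over the left-out libraries members called ran from 0 to 5, other modifiers from 0 to 12, E1 and E2 genes from 0 to 16, deubiquitinases from 0 to 34, NEDD8 pathway genes from 0 to 15, SUMO pathway genes from 0 to 14, UBL4A partners from 0 to 3 and ribosomal genes from 0 to 27. A group left with 1 library is assumed to vary like the other.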
